A study of Mus musculus with 2 samples.

Results

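The unfolded protein response genes Ern1, Xbp1, Eif2ak3, Atf4, Ddit3, Ppp1r15a, Atf6, Hspa5, Hsp90b1 and Dnajb9 were followed in nascent RNA from mouse bone marrow-derived macrophages (BMDMs). They were chosen by gene name, as all segments of nascent transcription that carried 1 of the 10 names, and they make up 10 of the 11054 genes named in the series. The choice was made with earlier results on the same libraries known, so the values of these genes in control against IL-4 are a description and no test is given. The compared cultures were wild-type BMDMs, from mice 8 to 12 weeks of age and, per the study's methods, on a C57BL/6 background. Both were differentiated for 6 days with supernatant of L929 cells, a fibroblast line that secretes macrophage colony-stimulating factor (M-CSF). The control culture received nothing further, and the other received IL-4, the cytokine of alternative macrophage polarization, at 20 ng/ml for 1 hr. The assay was global run-on sequencing (GRO-seq), in which nuclei extend the transcripts on which RNA polymerases are already engaged with a bromine-tagged nucleotide, and the tagged RNA is captured and sequenced. Replicate run-on reactions were pooled, and each condition gave 1 library from about 100 ng of eluted RNA (n = 1), so none of the values has a replicate, and no error between cultures can be given.

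The unfolded protein response is the reaction of a cell to misfolded protein in the endoplasmic reticulum (ER). It is relayed by a trio of sensors in the ER membrane: IRE1alpha (the product of Ern1), PERK (Eif2ak3) and ATF6. IRE1alpha splices the mRNA of the transcription factor XBP1, PERK phosphorylates the translation factor eIF2alpha and so favors translation of ATF4, and ATF6 is cut in the Golgi to release a transcription factor. Their targets include the ER chaperones BiP (Hspa5) and GRP94 (Hsp90b1). Secretory cells depend on this response, and in macrophages its branches are known to meet inflammatory signaling.

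Promoters are shown for Ern1 and Hsp90b1, which had a called segment across the start site on their own strand in both libraries, and for Hspa5, added after its values were seen. Each is the 250 bases before the RefSeq start (GRCm38.p6, the same build as mm10), written 5' to 3' on the strand of the gene, and RefSeq entries were found for 9 of the 10 genes, Atf6 being the exception. Capitals mark matches, on either strand, to the ER stress response element (ERSE; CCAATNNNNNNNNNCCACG), the sequence bound by ATF6 and NF-Y in chaperone genes. A segment also crossed the start in Ddit3 (IL-4) and Dnajb9 (control), and on the opposite strand in Xbp1, and in Eif2ak3 it began 21 bases after the start in control and 5 after it in the IL-4 library. These promoters are not printed. Like that of Ern1, they hold no match. The rule first set, a segment across the start in either library, would have included Ddit3, Dnajb9 and Xbp1. Hspa5 is printed for its ERSE match, and its highest segment begins 8 bases after the RefSeq start in control and 12 bases after it in the IL-4 library.
Ern1, chr11:106487797-106488046, minus strand: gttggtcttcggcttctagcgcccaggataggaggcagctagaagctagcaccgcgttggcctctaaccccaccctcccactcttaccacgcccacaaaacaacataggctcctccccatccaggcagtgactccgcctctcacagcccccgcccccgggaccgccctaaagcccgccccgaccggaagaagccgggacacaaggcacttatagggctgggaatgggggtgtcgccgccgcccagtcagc
Hsp90b1, chr10:86705445-86705694, minus strand: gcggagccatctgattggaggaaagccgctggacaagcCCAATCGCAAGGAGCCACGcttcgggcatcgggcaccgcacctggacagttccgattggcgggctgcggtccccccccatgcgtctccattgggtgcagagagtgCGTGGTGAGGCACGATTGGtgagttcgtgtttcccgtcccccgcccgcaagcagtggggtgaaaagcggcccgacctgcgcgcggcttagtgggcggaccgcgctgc
Hspa5, chr2:34771840-34772089, plus strand: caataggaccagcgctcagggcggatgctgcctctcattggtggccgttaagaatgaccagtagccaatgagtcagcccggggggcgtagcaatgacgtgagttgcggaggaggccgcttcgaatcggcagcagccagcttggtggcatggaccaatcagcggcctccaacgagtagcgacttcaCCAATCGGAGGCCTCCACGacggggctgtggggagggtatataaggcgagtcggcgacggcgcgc
Hspa5 holds 1 exact ERSE match, 65 to 47 bases before the start. Hsp90b1 holds 2, at 212 to 194 bases before it and, on the opposite strand, at 107 to 89 bases. Near matches were not searched, so these are not counts of all such elements. An exact match occurs in 37 of 32851 RefSeq promoters of this length (0.113%). Further motifs were searched on both strands in the same 9 promoters: the XBP1 element core (TGACGTGG; in 0.563% of all promoters), the ATF4 element core (TGATGNAA; 3.45%) and the STAT6 palindrome (TTCNNNNGAA; 5.85%). None of these letters was found in any of the 9 windows, which says nothing about sequence outside them.

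Each library is a list of called transcripts, that is, segments of nascent RNA on 1 strand, each with a score. The control library listed 43122 segments and the IL-4 library 51365. Segments were longer in the IL-4 library (median 312 against 227 bases) and their scores lower, so that the median gene value was 0.5 in control and 0.3 after IL-4. A gene's value was the highest score among the segments carrying its name. Ratios (IL-4 library over control library) were centred on the median of the 8879 genes with a value in both libraries, whose median log2 ratio before centring was -0.38. Scores are printed to 1 decimal, so a rounding range is given with each centred ratio. It covers rounding only. Of 8 macrophage markers all 8 had a segment in both libraries, and of 20 markers of T cells, B cells, erythroid cells, fibroblasts and granulocytes 1 had a segment in each library (Mpo in control, Ltf after IL-4).

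Ern1 was the only 1 of the 10 genes whose value was at least 2-fold higher after IL-4 relative to the median gene. Of the 9 genes with a value in both libraries, 1 was at least 2-fold higher (over all genes, 8.06%), 0 were at least 2-fold lower (8.62%) and 8 lay under 2-fold. On the centred scale 6 were above and 3 below 0, and their median was 0.38 against 0 for all genes. Ppp1r15a, the tenth gene, had a value in control only. Without centring 1 gene, Hsp90b1, would be 2-fold lower (over all genes, 24.3%). The median of the 9 would then be 0, against -0.38 for all genes. Its distance from 0 thus depends on the centring, while its distance from the median of all genes does not. The split around 0 depends on the centring too. Without it the log2 ratios of Ddit3 (0) and Atf4 (-0.11) were not above 0.

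**Figure D1:**
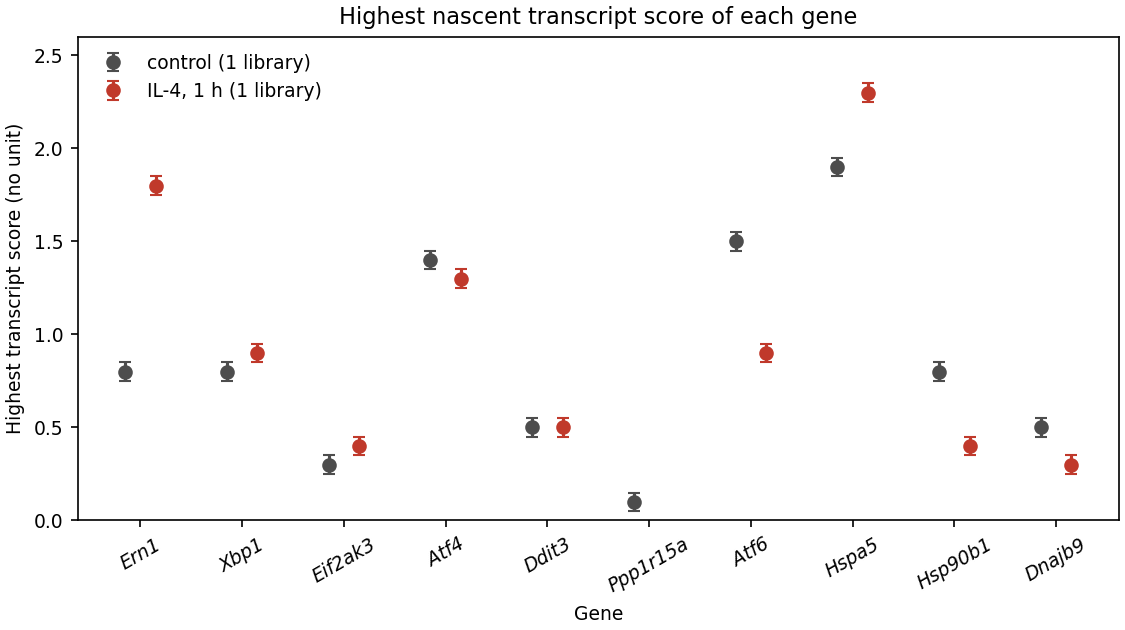
Highest transcript score (no unit) of each of the 10 genes in the control library (grey) and in the IL-4 library (red), before centring. Bars show the rounding of 0.05 on each side and no replicate error. Ern1 lies at 0.8 in control and 1.8 after IL-4, and Ppp1r15a has no point for IL-4.

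In the IRE1 arm, nascent RNA over Ern1 was called as a few isolated segments in control and as segments spread along the whole gene after IL-4. Ern1 lies at chr11:106394650-106487852 on the minus strand (93.2 kb; mm10, GENCODE M21) and encodes the sensor that is both a kinase and an endoribonuclease. Its value was 0.8 in control and 1.8 after IL-4. The centred log2 ratio was 1.55 (rounding range 1.42 to 1.68), which placed it 209th of 8879 genes from the top. It stayed at least 2-fold higher in 11 of 11 alternative definitions, at log2 values from 1.17 to 4.32. These all re-use the same 2 libraries and are not independent, and a pair of them was added after seeing the data.

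The gene was represented by 8 same-strand segments in control and 56 after IL-4. Their summed length was 1298 bases in control and 22287 after IL-4, a ratio of 17.2 where the median gene had 1.41. That ratio ranked 31st among 7211 protein-coding genes with segments in both libraries. The share of the gene covered was 1.39% in control and 23.9% after IL-4. Cut into 10-kb windows, 5 of 10 held a segment in control and 10 of 10 after IL-4, with 2 to 7 segments each. The mean segment score, weighted by segment length, was 0.242 in control and 0.282 after IL-4.

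All 8 control segments of Ern1 had an overlapping counterpart after IL-4, of which 6 scored higher, 1 equal and 1 lower. At the start site (48 bases into the gene in both libraries) the score was 0.3 in control and 0.8 after IL-4, over 172 and 241 bases. The segment about 1.4 kb into intron 1 scored 0.8 and 1.3. The highest-scoring one after IL-4, 46 kb into the gene in intron 2, scored 1.8 against 0.6 in control, so the highest segment was a different one in each library. The other 48 segments seen after IL-4 had no control counterpart and scored 0.1 to 1.1. The share of all IL-4 segments without a control counterpart was not computed. The IL-4 library listed more segments in all (51365 against 43122), so how unusual the 48 are was not assessed. Of the 56, 19 were annotated to a repeat element, that of 1.8 among them, and with such segments left out the centred log2 ratio was 1.44. Leaving them out removed the 0.8 of control but kept its counterpart of 1.3. It also removed the 1.8 after IL-4 but kept its counterpart of 0.6. The 1.44 thus sets 1.3 against 0.6 from different places in the gene and is not a like-for-like check. The most 3' part of the gene carries the name of the neighbor Icam2 in the deposited annotation, which names the nearest promoter. This applied to 3 segments in control and 24 after IL-4, and they are included above because they lie inside Ern1 on its strand.

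Xbp1, the transcription factor gene whose mRNA IRE1alpha splices, had nearly the same highest score in both libraries and more of its body covered after IL-4. Xbp1 lies at chr11:5520659-5525893 on the plus strand. The highest score was 0.8 in control and 0.9 after IL-4, both in the segment about 0.3 to 0.4 kb from the start, and the centred log2 ratio was 0.55 (rounding range 0.38 to 0.72). The start-proximal segment measured 327 bases in control and 1040 bases after IL-4. The 3 control segments further along scored 0.1 each, and the 4 after IL-4 scored 0.2, 0.4, 0.3 and 0.4. All 4 control segments had a higher-scoring counterpart. Summed length was 1258 bases in control and 4085 after IL-4 (ratio 3.25, against 1.41 for the median gene). Coverage of the gene was 24.0% and 67.5%. Score times length, summed over the segments, was 354.7 in control and 1954.7 after IL-4 (ratio 5.51, against 1.08 for the median gene). On the opposite strand across the start site, a segment scored 0.5 in both libraries.

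**Figure D2:**
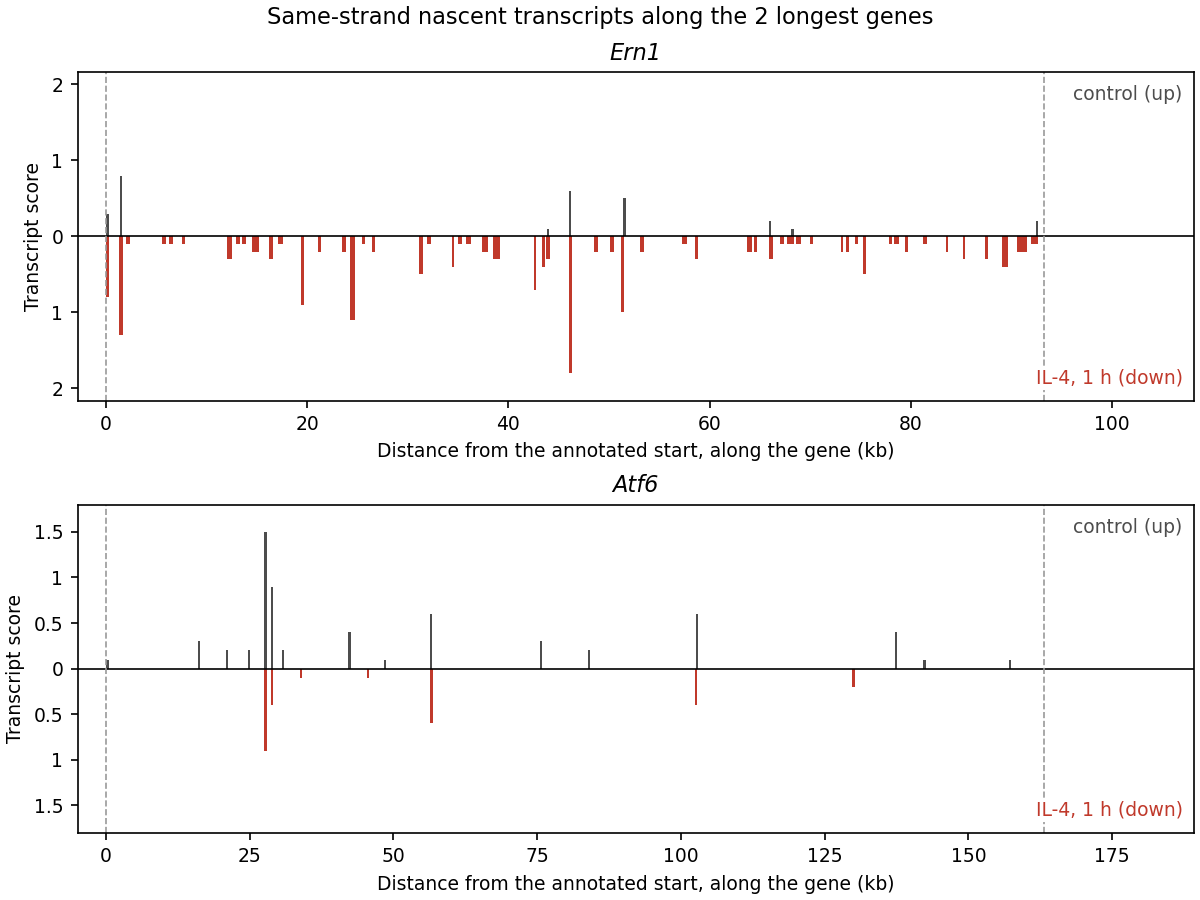
Called segments on the gene's own strand along Ern1 and Atf6. The x axis is the distance in kb from the annotated start and the y axis the segment's score, with control drawn upward (grey) and IL-4 downward (red), dashed lines at both gene ends, and narrow segments widened to be visible. Ern1 shows 8 segments in control and 56 after IL-4, Atf6 16 and 7.

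The PERK arm showed no member at least 2-fold higher or lower by its highest score. Eif2ak3 (chr6:70844515-70905245, plus strand, 60.7 kb) encodes PERK. It scored 0.3 in control and 0.4 after IL-4, with a centred log2 ratio of 0.79 and a wide rounding range of 0.38 to 1.23. The ratio was above 0 in 8 of 11 alternative definitions and below 0 in 3. In both libraries the only same-strand segment of Eif2ak3 lay at the start, 587 bases long in control and 623 after IL-4. No segment was called in the remaining part of the gene, in contrast to Ern1. A segment on the opposite strand upstream scored 0.3 in control and was not called after IL-4.

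Atf4 (chr15:80255184-80257541, plus strand) encodes the transcription factor whose translation rises when eIF2alpha is phosphorylated. Its highest score was 1.4 in control and 1.3 after IL-4, in the same segment of intron 1, which was 842 bases long in control and 1029 after IL-4. The centred log2 ratio was 0.27 (rounding range 0.16 to 0.38). A segment at the gene's 3' end scored 0.8 in control and 0.5 after IL-4. In control that segment began just beyond the annotated end, whereas after IL-4 it was longer (1891 against 710 bases) and began inside the gene. The difference in summed length over the gene, 842 against 2920 bases, therefore includes a segment that had a control counterpart just outside the gene. After IL-4 a segment at -548 bases from the annotated start scored 0.1 and had no control counterpart. The farther upstream segments named Atf4, 1 in control and 2 after IL-4, lie inside the neighboring gene Mief1 and scored 0.1 to 0.2.

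Ddit3 (chr10:127290774-127296288, plus strand) encodes CHOP, the pro-apoptotic factor downstream of ATF4. It scored 0.5 in both libraries at the start site, over 610 bases in control and 867 after IL-4, and its centred log2 ratio was 0.38 (rounding range 0.09 to 0.67). A second segment scored 0.2 in intron 1 in control, and after IL-4 a second segment scored 0.1 at the 3' end. Ppp1r15a (chr7:45522916-45526268, minus strand) encodes GADD34, which directs the phosphatase that reverses eIF2alpha phosphorylation. It had 1 segment of 214 bases near the start in control, with a score of 0.1, the lowest score that occurs, and none after IL-4. No ratio was formed for it.

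In the ATF6 arm, Atf6 had fewer segments and fewer covered bases after IL-4. Atf6 lies at chr1:170704674-170867771 on the minus strand (163.1 kb). The highest score was 1.5 in control and 0.9 after IL-4, in the same segment of intron 6 about 27.6 kb from the start, and the centred log2 ratio was -0.36 (rounding range -0.49 to -0.23). A neighboring segment in the same intron scored 0.9 and 0.4. Same-strand segments numbered 16 in control and 7 after IL-4, and their summed length was 3015 and 1303 bases (ratio 0.432, centred log2 ratio -1.71). That placed Atf6 387th from the bottom of 7211 genes. Of the 16 control segments 12 had no counterpart after IL-4, and these scored 0.1 to 0.4. A counterpart was found for 25% of the control segments of Atf6 and for 63.2% over all protein-coding genes. The start-proximal segment was among the 12 without one, with a score of 0.1 in control. In control 11 of the 16 segments were annotated to a repeat element, and after IL-4 5 of 7. Covered bases made up 1.85% of the gene in control and 0.799% after IL-4. With the value taken from the segment nearest the start, Atf6 turned to a centred log2 ratio of 3.17, since the start segment of 0.1 was replaced by one far inside the gene.

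Among the chaperones and their cochaperone, Hspa5 was higher and Hsp90b1 and Dnajb9 were lower than the median gene by less than 2-fold. Hspa5 (chr2:34771970-34777547, plus strand) encodes BiP, the ER chaperone that holds the sensors inactive. It scored 1.9 in control and 2.3 after IL-4 in a segment at the start of nearly equal length, 566 and 565 bases, and its centred log2 ratio was 0.65 (rounding range 0.58 to 0.72). Downstream, control had 1 further segment (0.1), and the IL-4 library had 5, with scores of 0.1 to 0.2, up to 4.98 kb from the annotated start. Coverage of the gene was 15.5% in control and 45.2% after IL-4. The ratio of summed length was 2.93, against 1.41 for the median gene. Score times length had a ratio of 1.49, against 1.08 for the median gene, and was thus under 2-fold on the centred scale. On the opposite strand upstream, a segment scored 0.2 in both libraries.

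Hsp90b1 (chr10:86690209-86705509, minus strand) encodes GRP94, the ER member of the HSP90 family. Its value was 0.8 in control and 0.4 after IL-4 in the segment at the start site, which on the centred log2 scale was -0.62 (-0.90 to -0.36 by rounding). That segment was 537 bases long in control and 1024 after IL-4, so score times length over the whole gene was close to even, 591.8 and 659.6 (centred log2 ratio 0.04). Both libraries held 5 segments, of which 3 of the control ones had a counterpart. The 2 nearest the 3' end in control (0.3 and 0.1) and 1 after IL-4 (0.1) carry the name of the antisense-strand neighbor 1810014B01Rik. Dnajb9 (chr12:44205559-44210326, minus strand) encodes ERdj4, a BiP cochaperone and known XBP1 target. It had a single segment, 252 and 263 bases from the annotated start, with a score of 0.5 over 175 bases in control and 0.3 over 232 bases after IL-4. The centred log2 ratio was -0.36 with a rounding range that includes 0 (-0.76 to 0.02).

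**Figure D3:**
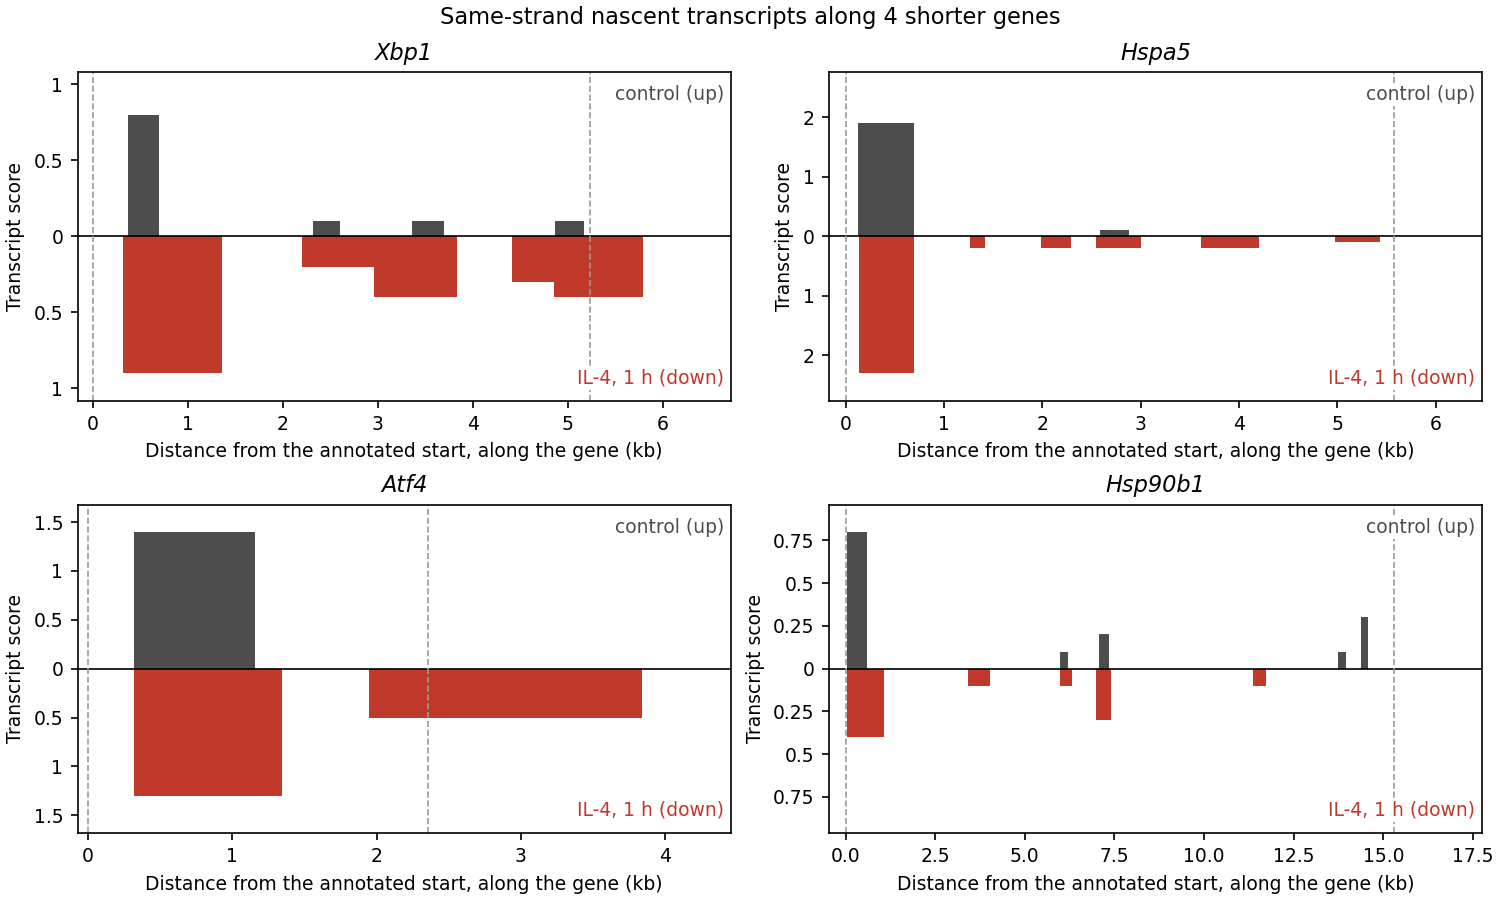
Called segments that overlap Xbp1, Hspa5, Atf4 and Hsp90b1 on the gene's own strand, plotted as distance in kb from the annotated start against score, with control upward (grey), IL-4 downward (red) and dashed lines at both gene ends. The IL-4 library has further segments downstream of the start in Xbp1 and Hspa5, and the start segment of Hsp90b1 is lower (0.4 against 0.8) and longer. Control's segment beyond the end of Atf4 is not drawn, since it does not overlap the gene.

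By summed length of same-strand segments, 4 genes (Ern1, Xbp1, Atf4 and Hspa5) were at least 2-fold higher relative to the median gene, where 16.2% of 7211 genes were, and 1 (Atf6) was at least 2-fold lower, where 14.8% were. By score times length 2 of the 9 were higher (Ern1 and Xbp1), where 16.6% of these genes were, and 1 was lower (Atf6), where 16.7% were. Over the 10 genes the same-strand segments numbered 41 in control and 85 after IL-4, and without Ern1 33 and 29. The gain in number thus came from Ern1.

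Segment by segment, 25 of the 41 control segments of these genes overlapped a same-strand IL-4 segment. Of these 14 scored higher after IL-4, 4 equal and 7 lower, with a median ratio of 1.21. Over all protein-coding genes, 23955 of 37923 control segments had a counterpart, and 22.6% of those scored higher and 54.9% lower (median ratio 0.8). Ern1, Xbp1 and Hspa5 contributed 12 of the 14 higher pairs and Atf6 contributed 3 of the 7 lower ones. Segments of 1 gene are not replicates of the condition.

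**Figure D4:**
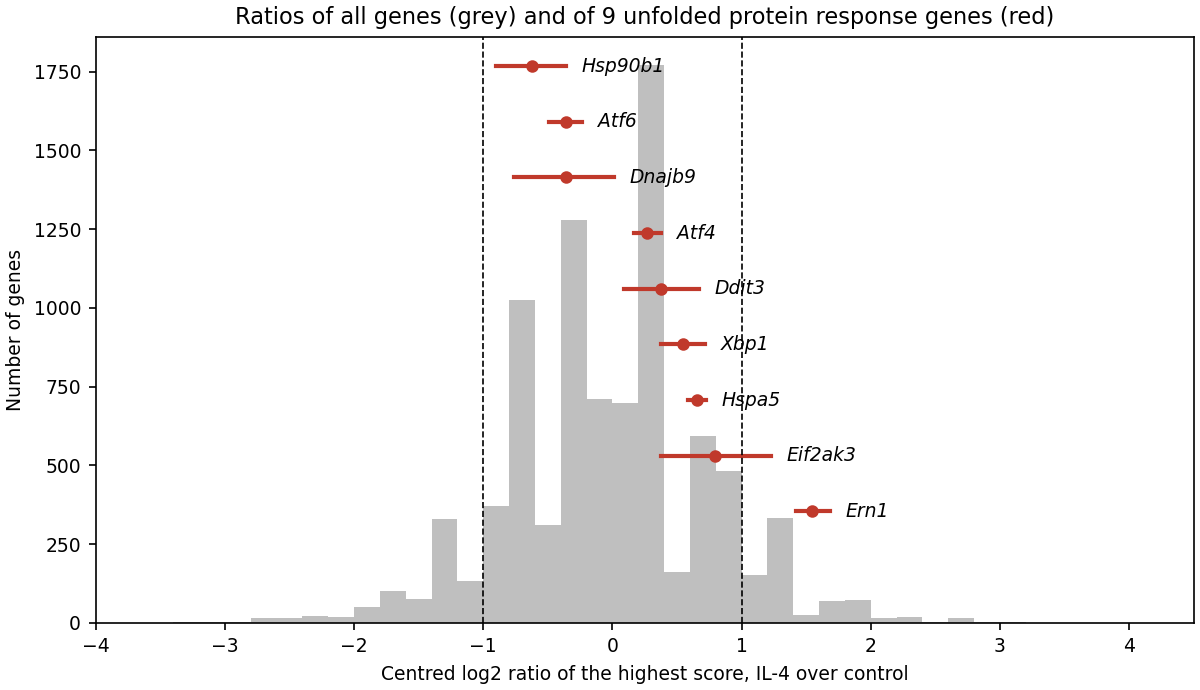
Centred log2 ratio of the highest score, IL-4 over control, for 8879 genes (grey histogram, number of genes on the y axis) and for the 9 unfolded protein response genes with a value in both libraries (red points with rounding ranges, stacked for legibility). Dashed lines mark 2-fold. Only Ern1 of the 9 lies beyond them, at 1.55. The histogram is uneven because scores are rounded to 1 decimal.

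A wider list of 66 further genes of the response was laid beside the 10. Of these, 51 had a value in both libraries, and 4 were at least 2-fold higher and 0 at least 2-fold lower (7.84% and 0%, against 8.06% and 8.62% of all genes). Their median centred log2 ratio was 0.12, with 32 above and 19 below 0. By segment name, a value in control only was found for Sec61b, Ddit4, Slc7a11 and Map3k5, and in the IL-4 library only for Creld2 and Aars. A further 9 genes, among them Trib3, Asns, Derl3 and Rtcb, had none. By same-strand overlap, however, Map3k5, Aars and Rtcb had segments in both libraries. Their highest scores in control and after IL-4 were 0.8 and 0.9 (Map3k5), 0.1 and 0.1 (Aars), and 0.4 and 0.2 (Rtcb).

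ER chaperones and folding enzymes held both genes that stayed higher by more than 2-fold over the whole rounding range. Pdia4, a protein disulfide isomerase, scored 0.5 in control and 1.5 after IL-4 (centred log2 ratio 1.96, rounding range 1.78 to 2.16). Calr, which encodes the lectin chaperone calreticulin, scored 0.7 and 1.4 (1.38, rounding range 1.23 to 1.54). By summed length of same-strand segments Calr had a ratio of 1.25, below the 1.41 of the median gene. By score times length it had 1.33, against 1.08 for the median gene. Pdia4 had 13.2 and 11.3 by these measures. By the highest score the other 15 of the 17 measured genes of this group were under 2-fold, and the group's median was 0.12. In ER-associated degradation and translocation 1 of 16, Derl2, was 2-fold higher, from 0.2 to 0.4 with a rounding range of 0.86 to 1.96 that crosses the 2-fold line, and the median was 0.38. The genes with the largest summed values in that group were Edem1, which directs misfolded glycoproteins to degradation (2.8 and 2.9, centred log2 ratio 0.43), and Sec62, a translocon partner (1.1 and 0.9, 0.09).

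None of the 9 measured genes among the eIF2alpha kinases, phosphatase and ATF4 program was beyond 2-fold (median 0.06). Eif2ak4, the amino acid sensor GCN2, scored 1.2 in control and 0.6 after IL-4 (centred log2 ratio -0.62). Atf3, a stress-induced transcription factor, scored 0.7 and 1.0 (0.89). Among sensor processing and signal relays 1 of 9, Creb3l2, was 2-fold higher with the same scores and rounding range as Derl2, and the median was -0.21. Tmbim6, the inhibitor of IRE1alpha also called BI-1, scored 0.7 and 0.8 (0.57), and Bax, a pro-apoptotic partner of IRE1alpha, 0.8 and 0.7 (0.19).

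**Figure D5:**
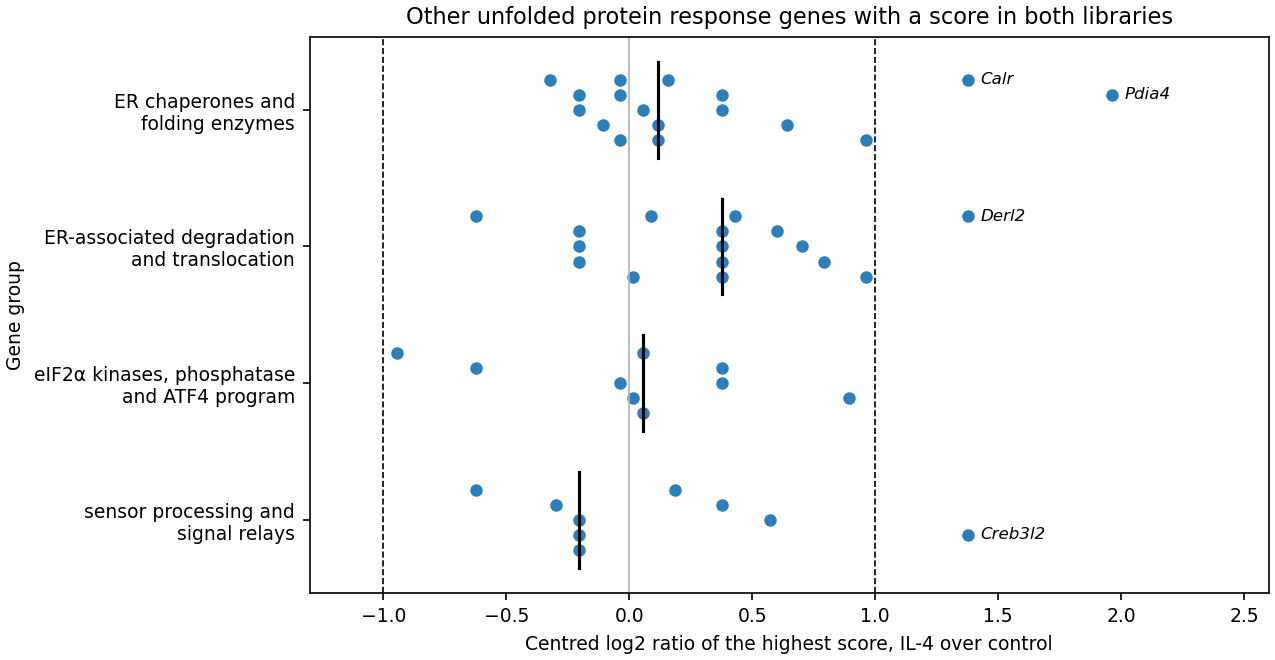
Centred log2 ratios of the highest score, IL-4 over control, for the 51 further unfolded protein response genes with a value in both libraries, by gene group. Each point is a gene, the vertical black line the group's median and the dashed lines 2-fold. Pdia4, Calr, Derl2 and Creb3l2 lie beyond 2-fold on the higher side, and none on the lower side.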

How the data were processed

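GRO-seq was measured in 2 libraries, control and IL-4 (1 hr), grouped from their treatment labels. The authors aligned the reads to mm10, called transcripts in each library separately with HOMER and annotated each to the nearest promoter. The submitters' processing notes list BWA 0.7.10, SAMtools 0.1.19 and HOMER 4.2. The only measurement the authors deposited is a score per transcript, rounded to 1 decimal. Whether it is scaled to library size is not given in the sources used here. No read counts were used, so the depth of the libraries is unknown and no counting interval was given.

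The 10 genes and the lists of 66 other genes were chosen with earlier results of these data known. Named among the 66, per group, were genes at least 2-fold changed over the whole rounding range (each score known to within 0.05), or, where fewer than 2 were, the 2 with the largest summed values. A gene with a value in 1 library only had no ratio. Segments were also assigned by overlap of at least 1 base with the GENCODE M21 gene on its strand, and counterparts were same-strand overlaps of at least 1 base. For Ddit3 the longer of its overlapping annotations was used. Start-proximal means within 1 kb. With 1 library per condition no test was possible. Alternatives were other gene values, no centring, other centring, a score minimum of 0.3, values of 0.1 for missing ones, and repeats left out. Scripts ran in Python 3.11.15 with pandas 2.3.3, NumPy 2.4.6 and matplotlib 3.10.9 and were tested on simulated data.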

Additional observations from a re-analysis of the deposited data

How the results depend on the processing

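Ern1 was at least 2-fold higher in all 11 alternatives. The reported counts were 1 of 9 genes higher and 0 lower, with a median of 0.38, and 4 of 51 other genes higher and 0 lower. All-gene shares are given as higher and lower. With summed scores (13.6% and 13.7% of all genes) 2 of 9 were higher (Ern1 and Xbp1) with a median of 0.16, and of 51 others 8 were higher and 3 lower. With score times length (17.2% and 16.9%) 2 of 9 were higher and 1 lower (Atf6), and of 51 others 10 and 4. With the transcript nearest the start (10.97% and 27.7%) 2 of 9 were higher (Ern1 and Atf6), 2 lower (Atf4 at -3.81 and Hsp90b1 at -1) and the median was 0, and of 51 others 5 and 7. For Atf4 this set the 1.4 of control's intron 1 segment against a different IL-4 segment of 0.1, at -548 bases from the start. Without centring (5.98% and 24.3%) 1 of 9 was higher and 1 lower (Hsp90b1), the median was 0, and of 51 others 4 and 4. For the other genes alone, centring on genes of at least 0.5 (12.6% and 7.44%) gave 7 higher and 0 lower of 51. A minimum of 0.3 in both libraries (5.65% and 6.49%) gave 2 and 0 of 38, leaving out repeats (9.98% and 11.3%) 6 and 1 of 51, missing values set to 0.1 (13.1% and 12.3%) 5 and 3 of 57, and the highest score by same-strand overlap (11.6% and 8.38%) 6 and 0 of 52. A pair of alternatives by same-strand overlap was chosen after seeing the data. Score times length (16.6% and 16.7%) gave 2 higher and 1 lower of 9, and 14 and 5 of 52 others. Summed length (16.2% and 14.8%) gave 4 and 1 of 9, and 13 and 6 of 52 others. The causes were not tested. The number of segments named for the 10 genes, 1.73 times control, was 1.41 times with scores of at least 0.3 and 2.07 times by same-strand overlap.

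No paired analysis was possible because each condition has 1 library and the labels give no replicate numbers. For the same reason no library was left out in turn. Scores in steps of 0.1 limit the ratios of low genes, and the unknown depth of each library limits what the absence of a segment shows.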
